A study of Mus musculus with 3 samples.

Results

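Long intergenic noncoding RNA (lincRNA) genes whose start lay more than 5 kb from any protein-coding start were examined for FLI1 and RUNX1 occupancy in mouse megakaryocytes (MK). In the GENCODE release M1 annotation of the mm9 genome, 526 of 1273 lincRNA genes met this rule, out of 23640 lincRNA and protein-coding starts counted. The remaining 747 lincRNA genes and the 22367 protein-coding starts served for comparison. For the 5 kb rule and the bands of distance, a protein-coding start was the start of any transcript annotated as protein-coding. The 22367 comparison starts, and the nearest coding genes with their distances, were taken from the 5′ ends of gene records. A lincRNA start was also the 5′ end of its gene record. Each start was described by the reads within 1 kb to either side, a window of 2001 bp.

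The study mapped transcription factors in MK by chromatin immunoprecipitation and sequencing (ChIP-seq). All 3 libraries came from wild-type CD1 mice, from livers labelled embryonic day 15, as mature MK after 5 days of culture in thrombopoietin, with other blood lineages depleted. The groups were FLI1 ChIP, RUNX1 ChIP (both with Abcam antibodies) and input chromatin without antibody, with 1 library each, and each library pooled at least 3 precipitates or input preparations (labels). Because pooling left no replicates, spread between cultures could not be seen and no test between libraries was possible. All intervals below are exact 95% intervals. Those of reads and read ratios cover counting error only. Those of shares of starts treat the starts as independent, which they need not be, and are no test between groups of starts.

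LincRNAs are transcripts without a coding frame that are capped, often spliced, and typically made at low levels. Some act in place on neighbouring genes, some act as scaffolds or decoys elsewhere, and some serve as hosts from which small nucleolar RNAs (snoRNAs) or microRNAs are cut. FLI1 is an ETS-family factor that recognises DNA with a GGAA core and is required for MK maturation and platelet formation. RUNX1 recognises a TGTGGT-like core and acts with its partner CBFB in MK and in blood stem cells.

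The sequences below show where the FLI1 reads lay at 6 of the strongest starts that held CCGGAA or CAGGAA, and at Gm17721. Gm17721 was of similar strength and held neither string, but its window holds the GGAA core in other contexts. It was not alone in this. Dleu2, 2410006H16Rik, 4932412D23Rik and 4930578M01Rik, also among the strongest starts, held neither string in windows placed the same way. Of the strong starts that are likewise not printed, 9430008C03Rik and Snhg12 held CAGGAA or its complement. The starts printed here were chosen after the values were seen. Each is 201 bp of the mm9 plus strand centred on the 200 bp with the most FLI1 reads. Capitals mark CCGGAA or CAGGAA, or the complement on the other strand, and in Gm14005 the motif and its complement overlap.
Gm10433 (chr12:101425628-101425828, plus strand): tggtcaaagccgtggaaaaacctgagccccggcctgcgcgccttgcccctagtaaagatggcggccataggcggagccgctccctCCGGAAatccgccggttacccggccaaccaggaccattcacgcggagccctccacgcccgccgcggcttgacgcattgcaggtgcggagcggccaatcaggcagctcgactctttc
Gm6634 (chr3:70611193-70611393, plus strand): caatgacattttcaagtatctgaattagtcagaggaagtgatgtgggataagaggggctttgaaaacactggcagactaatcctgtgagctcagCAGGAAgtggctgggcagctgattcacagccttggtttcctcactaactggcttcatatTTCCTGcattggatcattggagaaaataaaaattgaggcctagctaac
Gm16619 (chr16:49800516-49800716, plus strand): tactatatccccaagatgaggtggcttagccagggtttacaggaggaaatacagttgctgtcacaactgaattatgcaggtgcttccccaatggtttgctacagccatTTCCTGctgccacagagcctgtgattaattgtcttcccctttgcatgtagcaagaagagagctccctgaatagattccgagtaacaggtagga
Gm2885 (chr17:7032459-7032659, plus strand): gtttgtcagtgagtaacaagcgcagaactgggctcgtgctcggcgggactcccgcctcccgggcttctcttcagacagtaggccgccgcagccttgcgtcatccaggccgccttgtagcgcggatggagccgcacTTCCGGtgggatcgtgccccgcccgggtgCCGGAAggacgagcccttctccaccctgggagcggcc
5830416P10Rik (chr19:53539256-53539456, plus strand): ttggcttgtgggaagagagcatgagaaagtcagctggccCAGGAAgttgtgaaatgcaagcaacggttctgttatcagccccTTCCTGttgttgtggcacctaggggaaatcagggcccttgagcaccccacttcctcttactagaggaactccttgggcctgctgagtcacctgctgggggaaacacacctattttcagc
Gm14005 (chr2:128255045-128255245, plus strand): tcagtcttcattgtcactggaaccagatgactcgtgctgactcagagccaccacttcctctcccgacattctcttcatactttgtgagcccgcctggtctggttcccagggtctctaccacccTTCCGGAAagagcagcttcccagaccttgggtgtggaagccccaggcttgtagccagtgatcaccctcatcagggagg
Gm17721 (chr15:38314556-38314756, plus strand): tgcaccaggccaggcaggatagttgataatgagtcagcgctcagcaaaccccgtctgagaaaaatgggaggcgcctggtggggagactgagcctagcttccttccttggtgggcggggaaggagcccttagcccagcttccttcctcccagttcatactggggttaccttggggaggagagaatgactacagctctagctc

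These windows held a large part of the FLI1 reads of their starts. At 5830416P10Rik the 200 bp around the printed centre, 70 bp upstream of the start, held 216 FLI1 reads, 8 RUNX1 reads and 1 input read. At Gm6634 the centre lay 80 bp upstream and held 183 FLI1 reads against 3 input reads and no RUNX1 read. Gm10433 had 180 FLI1 reads, 1 RUNX1 read and no input read at a centre 450 bp upstream, Gm16619 had 157 FLI1 reads and 3 input reads at 30 bp upstream, and Gm17721 had 156 FLI1 reads and 1 input read at 80 bp upstream. Gm2885 had 152 FLI1 reads and 1 input read at 220 bp upstream, and Gm14005 had 120 FLI1 reads and 1 input read at 60 bp upstream. At these 7 the densest place held at most 3 input reads and lay upstream of the annotated start. It lay downstream at other strong starts, by 40 bp at 9430008C03Rik, 110 bp at 4932412D23Rik, 810 bp at Snhg12 and 900 bp at Dleu2. Centres more than 900 bp from a start were not searched.

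The libraries differed in depth, with 62946422 FLI1, 3973856 RUNX1 and 21745220 input reads on the chromosomes used. The study's supplement tabulates far more uniquely mapped RUNX1 tags for mature MK than the RUNX1 list used here holds, and the reason was not tested. Spread evenly over the genome, the reads would give a 2001 bp window 49.2 FLI1, 3.11 RUNX1 and 17.0 input reads on average. Per 1000000 reads of its library (rpm), 1 RUNX1 read weighed 0.252 rpm and 1 FLI1 read 0.0159 rpm. Fold was the ChIP reads divided by the input reads scaled to the same depth, with input under 3 reads set to 3, and a start was called at 10 or more ChIP reads and a fold of 2 or more. The starts of 8 MK marker genes, among them Itga2b and Pf4, were all called for FLI1, with folds from 2.43 to 8.84, and 5 of the 8 for RUNX1. None of 4 erythroid and 1 of 4 granulocyte and macrophage marker starts (Mpo, 4.78) were called for FLI1. ChIP reads at a start do not measure expression.

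FLI1 reads formed a narrow peak at distal lincRNA starts, of lower mean height than at protein-coding starts. Within 200 bp of the start the mean FLI1 density was 0.883 rpm per kb, against 0.452 and 0.456 rpm per kb in the regions 2 to 5 kb upstream and downstream. At protein-coding starts it was 1.55 rpm per kb near the start, with flanks of 0.437 and 0.451. The highest 100 bp bin was centred 50 bp upstream in both classes, at 1.14 rpm per kb for the lincRNA starts and 2.19 for the coding starts. RUNX1 density was 0.58 rpm per kb within 200 bp of the lincRNA starts, with flanks of 0.418 and 0.44, and 0.928 at the coding starts. Input density was level or lower at the start, 0.47 rpm per kb at the lincRNA starts against 0.491 and 0.49 in the flanks, and 0.418 at the coding starts.

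**Figure D1:**
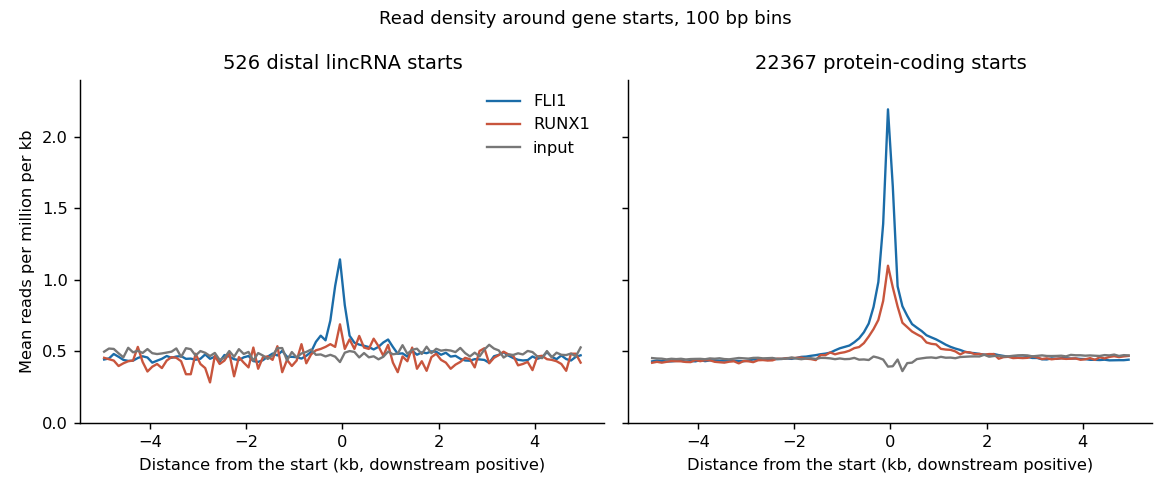
Mean read density (rpm per kb, vertical axis) in 100 bp bins against distance from the start (kb, horizontal axis) for 526 distal lincRNA starts and 22367 protein-coding starts, with 1 line per library. FLI1 peaks at 1.14 over the lincRNA starts and 2.19 over the coding starts, and RUNX1 at 0.689 and 1.1, while input stays between 0.425 and 0.546 over the lincRNA starts and between 0.362 and 0.477 over the coding starts.

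FLI1 was called at 94 of 526 distal lincRNA starts (17.9%, interval 14.7 to 21.4%), against a background of 35.8% of protein-coding starts. The median fold was 1.04, with quartiles of 0.762 and 1.58 and a maximum of 8.71, whereas coding starts had a median of 1.38. The most populated band lay below input in both classes, with 210 members (39.9%) and 26.2% of coding starts between 0.5 and 1. In all, 13 members (2.47%) reached 5 or more, against 7.53% of coding starts. LincRNA starts within 5 kb of a coding start were called more often, with 351 of 747 called (47.0%, 43.4 to 50.6%) and a median of 1.86. Their windows can hold the coding start itself, as at Gas5, 163 bp from one. Reads in such windows cannot be assigned to the lincRNA start alone. Of the 94 calls, 90 had an interval wholly above 1 and 28 wholly above 2. Of the 432 starts not called, 290 had an interval wholly under 2, and the fold of the rest could not be told from 2 at this depth. In total 504 members had 10 or more FLI1 reads.

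By the methods, the input chromatin was cut with micrococcal nuclease and the ChIP chromatin was sheared by sonication. The labels name sonication for the precipitated chromatin and no cutting step for the input, so how the DNA behind the denominator of every fold was broken is uncertain. Called members had fewer input reads, a median of 16.5 against 21 in the others, and the fold itself selects on that. When each start was set against the larger of its input and the genome-wide rate, 72 members (13.7%) and 31.6% of coding starts were called for FLI1, so the members stayed below the coding starts.

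**Figure D2:**
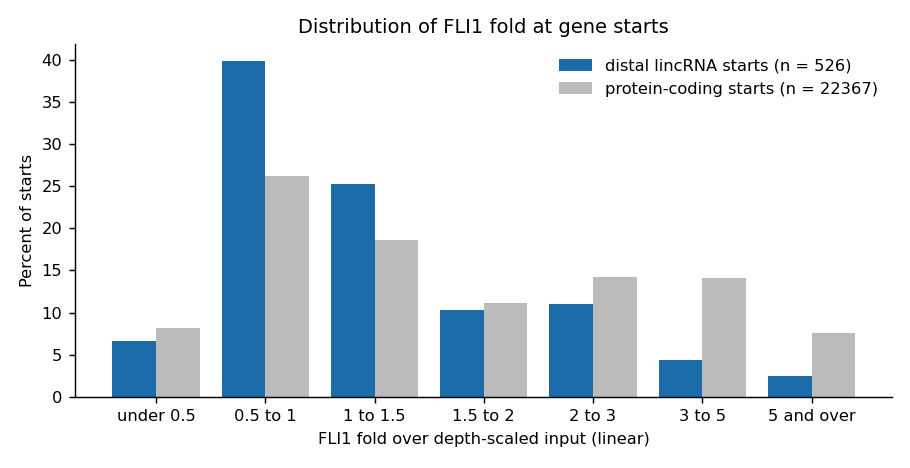
Percent of starts (vertical axis) in each band of FLI1 fold over depth-scaled input (horizontal axis, linear scale) for 526 distal lincRNA starts and 22367 protein-coding starts. Both classes are most frequent between 0.5 and 1 (39.9% of lincRNA and 26.2% of coding starts). A fold of 5 or more is reached by 2.47% of lincRNA starts, against 7.53% of coding starts.

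RUNX1 was called at 24 members (4.56%, 2.94 to 6.71%), against a background of 11.3% of protein-coding starts. The median RUNX1 fold was 1.00, with 1.28 at coding starts and 1.6 at lincRNA starts near coding genes, of which 114 (15.3%) were called. Only 26 members had 10 or more RUNX1 reads, and the highest had 15. The read minimum set this count, since 83 members reached a fold of 2 when no minimum was used. Of the 24 calls, 21 had an interval wholly above 1 and 3 wholly above 2, so RUNX1 values of single starts are imprecise.

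Called members were CpG-rich more often than the others. A start was termed CpG-rich where the 500 bp to either side had at least 50% GC and a CpG observed over expected ratio of at least 0.6. By this measure 85 members were CpG-rich (16.2%), against 44.2% of coding starts and 58.4% of lincRNA starts near coding genes. Among CpG-rich members 37 of 85 were called for FLI1 (43.5%, 32.8 to 54.7%), with a median fold of 1.82, below the 63.6% of CpG-rich coding starts and the 61.7% (57.0 to 66.3%) of CpG-rich lincRNA starts near coding genes. Among the other members 57 of 441 were called (12.9%, 9.94 to 16.4%), with a median of 0.982, and the share at coding starts of that class, 13.9%, lay inside this interval. LincRNA starts near coding genes without CpG richness were called in 26.4% (21.6 to 31.6%), an interval that did not meet that of the distal starts.

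RUNX1 calls followed the same order. They were made at 10 of 85 CpG-rich members (11.8%, 5.79 to 20.6%), with 21.6% at CpG-rich coding starts, and at 14 of 441 other members (3.17%, 1.75 to 5.27%), with 3.2% at other coding starts. CpG-rich starts made up 39.4% of FLI1-called members and 11.1% of those not called. Input was lower at CpG-rich members, with a median of 18 reads against 21, and its part in these shares was not tested.

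**Figure D3:**
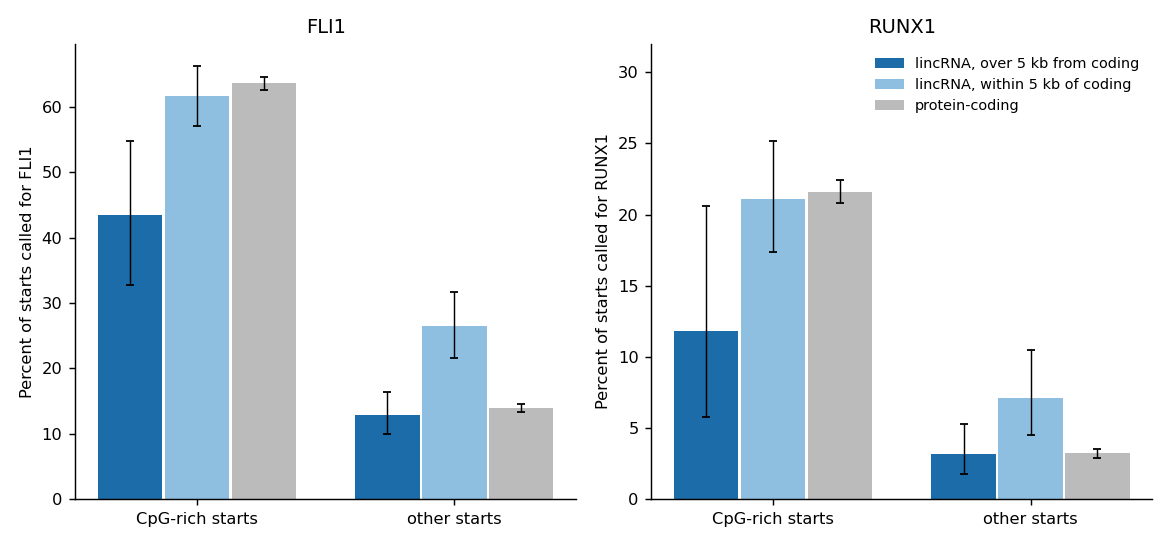
Percent of starts called for FLI1 (left) and RUNX1 (right, a different vertical scale) by CpG class, for distal lincRNA, near-coding lincRNA and protein-coding starts, with exact 95% binomial intervals. Distal lincRNA starts are called for FLI1 in 43.5% of CpG-rich and 12.9% of other starts, against 63.6% and 13.9% of coding starts.

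The member with the highest FLI1 fold was Dleu2, host of the miR-15a and miR-16-1 microRNAs, which are known as restraints on the cell cycle and on BCL2. Its start (chromosome 14, 62301162, minus strand) had 252 FLI1, 11 RUNX1 and 10 input reads, giving a FLI1 fold of 8.71 (4.66 to 18.4) and a RUNX1 fold of 6.02 (2.32 to 15.8). FLI1 and RUNX1 were both high there and input was low. Its densest 200 bp, with 79 FLI1 reads, was centred 900 bp downstream of the annotated start, inside the gene. That is the limit of the search, so a denser place farther downstream would not have been found. The nearest coding gene was Kcnrg, a potassium channel regulator, 74843 bp away on the opposite strand, with a FLI1 fold of 0.806 at its own start.

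Several of the strongest starts belonged to snoRNA hosts, genes whose introns yield the RNAs that guide ribosomal RNA modification. 2410006H16Rik, which holds 3 snoRNA genes, had 229 FLI1, 10 RUNX1 and 10 input reads (FLI1 fold 7.91, 4.22 to 16.7, and RUNX1 fold 5.47, 2.04 to 14.7). It was high for both factors, and Trpv2, a cation channel gene 28391 bp away, was the nearest coding gene. 9430008C03Rik, which RefSeq names Snhg17, had 327 FLI1, 3 RUNX1 and 20 input reads (FLI1 5.65, 3.597 to 9.37, and RUNX1 0.821, 0.156 to 2.77), and it was called for FLI1 alone, although its 3 RUNX1 reads leave a RUNX1 fold of 2 within the interval. Its nearest coding record was Snhg11, itself a snoRNA host that this release types as coding, 14058 bp away. Snhg12 had 178 FLI1, 7 RUNX1 and 11 input reads (FLI1 5.59, 3.05 to 11.4, and RUNX1 3.48, 1.15 to 9.84, under the minimum of 10 reads), and it lay 5293 bp from Rab42-ps.

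Across the members, 12 held a snoRNA gene on their own strand and 7 of these were called for FLI1 (58.3%, 27.7 to 84.8%), while 2 of 23 that held a microRNA gene were called (8.70%, 1.07 to 28.0%). This split was noticed after the values were seen. It includes 9430037G07Rik and Gm17683, whose overlapping windows had 18 FLI1, 1 RUNX1 and 2 input reads each, so that both folds of 2.07 were computed on the input floor of 3 reads. Without such low-input starts, 5 of 10 snoRNA hosts were called. The shares over all members and over coding starts were 17.9% and 35.8%. All 7 called hosts were among the 10 CpG-rich ones, and their share of 70% (34.8 to 93.3%) had an interval that included those of CpG-rich members (43.5%) and CpG-rich coding starts (63.6%). The microRNA hosts called were Dleu2 and 2610206C17Rik, and Mir155, host of an immune microRNA, was not called with 84 FLI1, 4 RUNX1 and 18 input reads (FLI1 1.61).

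A further group of strong starts had an uncharacterised transcript. Gm10433 (338 FLI1, 3 RUNX1 and 16 input reads, FLI1 fold 7.30, 4.43 to 12.9, and RUNX1 fold 1.03) was CpG-rich and called for FLI1 alone. Gm16619 (330, 6 and 19 reads in the same order, FLI1 6.0, 3.78 to 10.1) lay 55085 bp from Cd47, the surface signal that protects cells and platelets from phagocytosis. At both, FLI1 stood well above input, while the interval of the RUNX1 fold included both 1 and 2.

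Gm2885 (435 FLI1, 15 RUNX1 and 28 input reads, FLI1 5.37, 3.66 to 8.17, and RUNX1 2.93, 1.46 to 5.68) had the most FLI1 reads of all members and lay 45206 bp from Ezr, which links membrane to actin. Gm17721 (413, 12 and 23 reads, FLI1 6.20, 4.08 to 9.90, and RUNX1 2.86, 1.295 to 5.98) lay 84272 bp from Klf10, a zinc-finger factor. 5830416P10Rik, named Mirt1 in RefSeq (327, 12 and 20 reads, FLI1 5.65, 3.597 to 9.37, and RUNX1 3.28, 1.46 to 7.05), lay 64313 bp from Dusp5, a phosphatase of ERK. These 3 starts were called for both factors, and their coding neighbours were themselves called for FLI1, with folds of 3.21 at Ezr, 3.20 at Klf10 and 3.92 at Dusp5. Of the other named starts called for both, Gm17422, Gm9530 and 2610206C17Rik had a neighbour called for FLI1. Dleu2, 2410006H16Rik, Gm14005, 1300002E11Rik, Gm17276 and Gm4262 had not. The nearest coding start was called for 236 of all 526 members, beside 35.8% of all coding starts. With 2 kb to either side the RUNX1 folds of the 3 starts were under the threshold, at 1.68 for Gm2885, 1.61 for Gm17721 and 1.78 for 5830416P10Rik.

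Gm6634 was the most isolated of the strong starts. It had 274 FLI1, 5 RUNX1 and 14 input reads (FLI1 6.76, 3.96 to 12.5, and RUNX1 1.95, 0.551 to 5.74), was not CpG-rich, and its nearest coding gene, Otol1, which encodes an inner ear matrix protein, lay 799678 bp away with a fold of 1.05. 4930578M01Rik had 144 FLI1, 5 RUNX1 and 6 input reads (FLI1 8.29, 3.72 to 23.0), with a wide interval set by its 6 input reads, and Gm8973 lay 20091 bp away. 4932412D23Rik had 258 FLI1, 9 RUNX1 and 13 input reads (FLI1 6.86, 3.94 to 13.1). Its start lay 119 bp from the start of the gene record of Zbtb20, a transcriptional repressor, although the nearest protein-coding transcript began 31883 bp away, so its reads cannot be assigned to one of the pair.

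RUNX1 fold was highest at Gm17422, where 12 RUNX1, 109 FLI1 and 9 input reads gave a RUNX1 fold of 7.30 (2.82 to 19.6) and a FLI1 fold of 4.18 (2.13 to 9.39). Dleu2 and 2410006H16Rik came next and their intervals overlapped that of Gm17422. 2610206C17Rik (10 RUNX1, 97 FLI1 and 11 input reads) had a RUNX1 fold of 4.98 (1.89 to 12.9) near Zfand6, and Gm9530 (15, 152 and 20 reads) had 4.104 (1.96 to 8.43) at 16370 bp from Ier5, an immediate early gene. The order of these 5 RUNX1 folds lay within counting error. The FLI1 call of Gm9530 was lost in a single random thinning of FLI1 to the RUNX1 depth (1.64), and that of 2610206C17Rik against the genome-wide rate (1.97).

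Both factors were called at 19 members (3.61%, 2.19 to 5.58%), against a background of 9.41% of coding starts. RUNX1 was called at 19 of 94 FLI1-called members (20.2%, 12.6 to 29.8%) and at 5 of 432 others (1.16%, 0.377 to 2.68%), while at coding starts the shares were 26.2% and 2.98%. Of the RUNX1-called members 79.2% were also called for FLI1, with 83.1% at coding starts. The 2 folds share 1 input library, which couples the calls. Without input, FLI1-called members averaged 1.57 RUNX1 rpm per window (1.45 to 1.7) and the others 0.95 (0.905 to 0.997), whereas input averaged 0.779 and 0.987 rpm.

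Beside those described, the shared starts included 1300002E11Rik (188 FLI1, 12 RUNX1 and 19 input reads, with nearly equal folds of 3.42 and 3.46), Gm17276 (154, 12 and 17 reads, folds of 3.13 and 3.86) near Notch3, and Gm4262 (387, 15 and 39 reads, folds of 3.43 and 2.11) inside the gene Litaf. The RUNX1 fold of Gm4262 was under the threshold at 1.90 with 500 bp and 1.45 with 2 kb to either side. That of Gm17276 was 0.608 and 1.87 in the same windows, and its FLI1 fold was 1.64 with 2 kb. The 5 members called for RUNX1 alone, named here because they were few, were 4930444M15Rik, Gm17696, 6430562O15Rik, Gm17302 and a record that carries the name of the coding gene Tdrd5. They had 10 to 12 RUNX1 reads and FLI1 folds from 0.954 to 1.56.

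**Figure D4:**
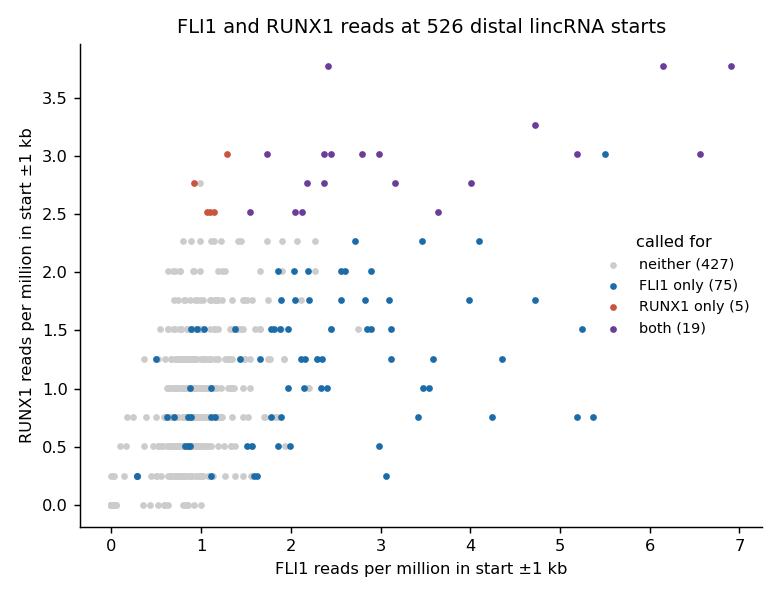
RUNX1 against FLI1 reads (rpm) in the 1 kb to either side of the 526 distal lincRNA starts, 1 point per start, coloured by call (neither 427, FLI1 alone 75, RUNX1 alone 5, both 19). RUNX1 values lie in rows because 1 RUNX1 read equals 0.252 rpm, and Gm2885 is the point farthest to the right.

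Of 39 lincRNAs listed for their known roles, 15 had a lincRNA record under the listed symbol and 11 of these were members. Of the 11, 4 were called for FLI1, a share set against 35.8% of coding starts. A listed lincRNA that the annotation names otherwise was not counted, such as Trp53cor1, which was called for FLI1 as Gm16197 (below). Dleu2 and Snhg12 are given above. Gm14005, named Morrbid in RefSeq and known for its control of the lifespan of short-lived myeloid cells, had 297 FLI1, 13 RUNX1 and 23 input reads (FLI1 4.46, 2.92 to 7.15, and RUNX1 3.09, 1.44 to 6.37). It was called for both factors, although its nearest coding start, Gm355, lay 161860 bp away and had a FLI1 fold of 0.553. Snhg5, a snoRNA host, had 135, 4 and 16 reads (FLI1 2.92, 1.73 to 5.25). Its FLI1 fold was under the threshold with 2 kb to either side, at 1.875, and at 1.37 in the single random thinning of FLI1 to the RUNX1 depth. The RUNX1 fold of Gm14005 was 1.95 with 500 bp to either side.

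Of the known lincRNAs not called, Snhg7, also a snoRNA host, had 154, 6 and 30 reads and a FLI1 fold of 1.77 (1.19 to 2.72). The imprinted Meg3 (48 FLI1, 8 RUNX1 and 13 input reads, FLI1 1.28, RUNX1 3.37 on under 10 reads) and Airn (62, 1 and 16 reads, FLI1 1.34) had intervals that included 1, as did Pvt1, the neighbour of Myc (76, 3 and 24 reads, 1.09), and the neural Rmst (45, 4 and 15 reads, 1.04). Miat (50, 5 and 27 reads) stood at 0.640 (0.393 to 1.06). Mirg, a microRNA host in the Meg3 domain, had 50 FLI1, 9 RUNX1 and 41 input reads, so its FLI1 fold of 0.421 (0.273 to 0.653) lay below input. Among the 4 listed lincRNAs near a coding start, Gas5, Tug1 and Snhg1 were called for FLI1 and Rian was not.

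**Figure D5:**
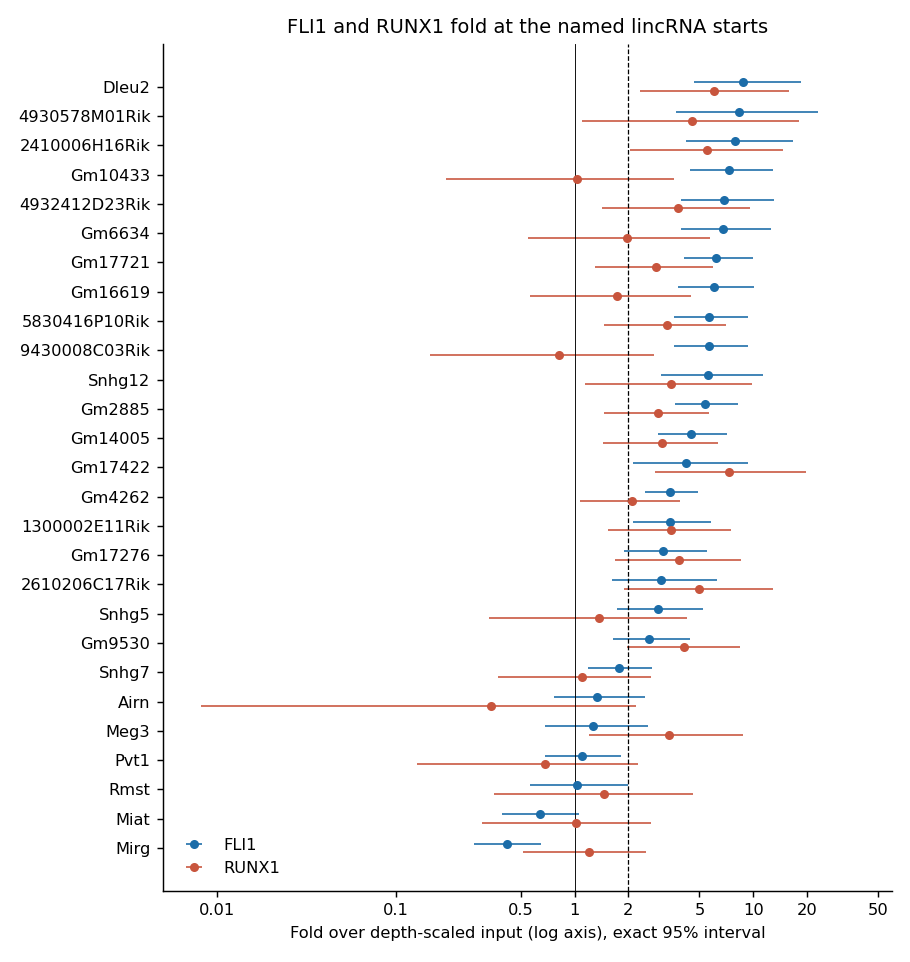
FLI1 and RUNX1 fold over depth-scaled input (log axis) with exact 95% intervals at 27 named lincRNA starts, ordered by FLI1 fold. The dashed line marks a fold of 2 and the solid line 1, and FLI1 folds run from 8.71 at Dleu2 to 0.421 at Mirg, while most RUNX1 intervals are wider.

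The intervals of the members just inside and just outside the FLI1 threshold overlapped. Gm17382 (128 FLI1 and 22 input reads), Gm12784 (70 and 12) and Gm17439 (87 and 15) stood at 2.01, 2.015 and 2.004, and Gm17256 (92 and 16), 2700038G22Rik (85 and 15) and 5830418P13Rik (51 and 9) at 1.99, 1.96 and 1.96.

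Few genes of the lists drawn up for blood and neural lineages were the nearest coding gene of a member, as was so for coding genes in general. Of all 22367 coding genes, 489 (2.19%) were nearest to a member. Of 40 MK and platelet genes listed, 1 was (2.5%), Ptgs1, which makes the thromboxane precursor. That member, Gm13429, had 79 FLI1, 2 RUNX1 and 24 input reads (FLI1 1.14), while the Ptgs1 start 28112 bp away had a fold of 6.25. Of 48 blood transcription factor genes, 3 (6.25%), Myb, Mef2c and Myc, were nearest to 4 members (Gm16786, C130071C03Rik, Gm17547 and Pvt1), with FLI1 folds from 1.05 to 1.34 and no call. A lymphoid gene, Tcf7, was nearest to Gm16953 (0.548), and no erythroid, granulocyte and macrophage or neural gene on the lists was nearest to any member. Gm16197, named Trp53cor1 in RefSeq, was on the list of known lincRNAs under that name but was noticed only after its value was seen. It lay 12018 bp from Cdkn1a, the cell cycle inhibitor it is known to be transcribed beside. Its start had 164 FLI1, 8 RUNX1 and 16 input reads (FLI1 3.54, 2.12 to 6.34).

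Where the nearest coding start was itself called for FLI1, 49 of 236 members were called (20.8%, 15.8 to 26.5%), and where it was not, 45 of 290 (15.5%, 11.5 to 20.2%). These intervals overlapped. By distance, 7 of 100 members at 5 to 10 kb were called (7.0%, 2.86 to 13.9%), 53 of 250 at 10 to 50 kb (21.2%, 16.3 to 26.8%), 28 of 152 at 50 to 200 kb (18.4%, 12.6 to 25.5%) and 6 of 24 farther away (25%, 9.77 to 46.7%). The share was lowest in the band nearest to coding starts, where its interval did not meet that of the 10 to 50 kb band.

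Starts inside a protein-coding gene were called in 15 of 165 cases (9.09%, 5.18 to 14.6%) and starts between genes in 79 of 361 (21.9%, 17.7 to 26.5%). Among starts without CpG richness the shares were 8.33% (4.51 to 13.8%) inside and 15.4% (11.4 to 20.2%) between genes, with intervals that overlapped, and 9 CpG-rich starts lay inside genes. Members with 1 annotated transcript were called in 15.2% (11.8 to 19.2%) and those with more in 25.8% (18.5 to 34.1%), and these intervals overlapped. Of the 526 members 267 matched a RefSeq name, and 233 of these were typed there as lncRNA. Members so typed were called in 25.8% of cases (20.3 to 31.9%), and the 293 others, 16 of which RefSeq types as protein-coding, in 11.6% (8.17 to 15.8%).

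The 200 bp with the most FLI1 reads lay within 200 bp of the annotated start in 57 of 94 called members (60.6%) and 137 of 432 others (31.7%), with 64.9% and 35.5% at coding starts. It lay upstream of the start in 60.6% of called members and 59.7% of called coding starts, and in 50.5% of members not called. Called members hold more FLI1 reads by the rule of the call, and the part of read number in this difference was not tested.

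An ETS motif, CCGGAA or CAGGAA on either strand, was found within 100 bp of that place in 54 of 94 called members (57.4%, 46.8 to 67.6%) and in 137 of 432 others (31.7%, 27.3 to 36.3%). Over all coding starts the share was 42.4%, and 62.1% over those called. CCGGAA, which contains a CpG, was present in 24.5% (16.2 to 34.4%) of called members and 44.5% of called coding starts, and in 7.87% of members not called. Among called members it was found in 35.1% of CpG-rich and 17.5% of other starts. At the annotated start itself, an equal window held either motif in 37.2% (27.5 to 47.8%) of called members and 30.8% (26.5 to 35.4%) of the others, intervals that overlapped, with 32.6% over all coding starts.

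The RUNX motif, TGTGGT or TGCGGT on either strand, was found near the place of most FLI1 reads in 23.4% (15.3 to 33.3%) of FLI1-called members. In the other members the share was 17.8% (14.3 to 21.8%), an interval that overlapped, with 17.5% over all coding starts. It was found in 1 of 24 RUNX1-called members (4.17%, 0.105 to 21.1%), in windows placed by FLI1 reads and not by RUNX1 reads. The GATA motif, AGATAA or TGATAA, was found in 10.6% of FLI1-called and 14.1% of other members, with 12.4% over all coding starts. The ETS, RUNX and GATA letters share no string. Matches describe letters in a window and were not tested as sites.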

How the data were processed

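Mapped read positions were deposited by the authors as 1 list per library, aligned to mm9 with Bowtie (version not given in the sources used here), with repeats already removed from the ChIP lists. SICER 1.1 and MACS 1.4 are named in the submitters' processing notes and were not used here. Reads were 50 bp (FLI1, RUNX1) and 34 bp (input). Of the first 100000 plus-strand reads, 80.5% (FLI1) and 59.7% (RUNX1) were identical to the mm9 genome at their position. Chromosomes 1 to 19, X and Y were used, reads were moved 75 bp toward their 3′ end, and repeated input positions (3.24%) were counted once. Scaling was by totals, so 1 input read stood for 2.895 FLI1 or 0.1827 RUNX1 reads. Shares carry exact (Clopper-Pearson) binomial intervals, treating starts as independent, and folds the matching ratio interval. Pooled rpm carry exact Poisson intervals. In all, 7 pairs of member windows overlapped. Folds and intervals were tried on independent Poisson counts simulated at the input rates, in windows with 3 or more input reads. Such counts follow the model of the interval. They therefore check the calculation and do not cover spread beyond counting error in these libraries.

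Named starts were the 12 called members with the highest lower FLI1 bound and the 5 with the highest lower RUNX1 bound. They also included up to 10 called for both, 3 on either side of the threshold, and all members under the symbol of a listed known lincRNA. The nearest coding gene of 1 named start is not reported here. Members and lists were chosen with earlier results of these data known. RefSeq names came from the GRCm38.p6 table and were matched by identifier, symbol or synonym. Python 3.11.15, numpy 2.4.6, pandas 2.3.3, scipy 1.17.1 and matplotlib 3.10.9 were used.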

Additional observations from a re-analysis of the deposited data

How the results depend on the processing

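Counts depended on window, threshold and depth, while the members stayed below the coding starts in share called for FLI1 under every alternative run. FLI1-called members numbered 51 with 2 kb to either side, 148 at a fold of 1.5, 36 at a fold of 3, and 47 when FLI1 was thinned to the RUNX1 depth. Thinning was a single random draw, so values under it carry the error of that draw. FLI1-called coding starts numbered 4842 at a fold of 3 and 5270 after thinning. RUNX1-called members numbered 1 with 500 bp to either side, 14 at a fold of 3, 83 without a read minimum, and 15 of the 323 members over 20 kb from coding starts. RUNX1-called coding starts numbered 669, 1663 and 6290 under the first 3 of these. Members called for both numbered 1 with 500 bp to either side, 9 at a fold of 3 and 42 without a read minimum. The median FLI1 fold of members was 1.11 with 500 bp to either side, 1.23 against the genome-wide rate and 0.974 against the larger of that rate and input, and the median RUNX1 fold was 1.29 against the genome-wide rate. The FLI1 fold of Gm12784 was 0.985 with 2 kb to either side, and the RUNX1 fold of Gm17276 0.608 with 500 bp. The cause of these changes was not tested, except that smaller windows and thinning leave fewer reads against the same minimum.

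Of the values of single named starts, the coding medians and the shares under alternatives, 1190 stayed within their interval or 1.5 times. A further 64 moved by more. Many of the 1190 could not move, because changes of fold threshold, read minimum or set of starts leave the fold of a single start unchanged. A reversal across 1 was looked for only in called folds, and 2, those of Gm12784 and Gm17276 above, reversed direction. Leaving out members within 5 kb of a coding gene record, an alternative added after seeing the data, left 521 members with 93 called for FLI1 and 24 for RUNX1. No paired analysis was possible because each group was 1 library, and for the same reason no library could be left out. RUNX1 depth, 3.11 reads per window on average, limits every RUNX1 value given here.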
